A study of Homo sapiens with 6 samples.

Results

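The receptors through which glutamate and γ-aminobutyric acid (GABA) act, together with a set of proteins that organize and run the synapse, were examined in U251 cells exposed to tumor necrosis factor-α (TNF-α). The members were the protein-coding genes whose symbols begin like those of the ionotropic glutamate receptors (GRIA, GRID, GRIK, GRIN), the metabotropic glutamate receptors (GRM), the GABA-A subunits (GABRA to GABRR with a number), the GABA-B subunits (GABBR), the neurexins (NRXN), the neuroligins (NLGN), the synaptotagmins (SYT), the synapsins (SYN) and the scaffolds DLG1 to DLG4. This rule took 74 of the 58735 genes in the table, of which 19951 were protein-coding, and used no expression value. It also took 1 gene that encodes a partner of a receptor and is not a receptor itself, and it left out the GABA-A subunits whose symbols carry no number.

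U251 is an established human glioblastoma line. In the NC group (n = 3) the cells received sterile deionized water, and in the TNF-α group (n = 3) they received recombinant human TNF-α at 10 ng/mL, each for 24 h. Poly(A) RNA of 6 cultures, which the labels call independent biological replicates, was sequenced. No other cell line was sequenced in these libraries, so the values describe U251 alone. In bulk RNA, fewer cells that hold a transcript and less of it per cell cannot be told apart.

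Glutamate opens AMPA, kainate and NMDA receptors, which are cation channels built from several subunits, and also acts on metabotropic receptors that signal through G proteins. GABA opens the chloride channels of the GABA-A family and acts on the GABA-B receptor, which needs a GABBR1 and a GABBR2 subunit together to reach the cell surface and signal. Neurexins and neuroligins bind each other across the synaptic cleft, DLG scaffolds hold receptors in the postsynaptic membrane, and synaptotagmins and synapsins serve vesicle release. In brain these genes are best known from neurons, and glioma cells are known to express some of them.

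The libraries held 31992167 to 37897044 reads in genes. TNF-α replicates 2 and 3 stood apart from the other 4 libraries. In them, genes of more than 8 kb held only 16.6% and 17.9% of all reads, while the range in NC cells and TNF-α replicate 1 was 28.8% to 29.1%. The labels gave no batch, and since both libraries were in the TNF-α group, the treatment and this difference cannot be told apart from these 2 libraries alone. The treatment itself was visible in all 3 TNF-α libraries. NFKBIA, which encodes the inhibitor IκBα and is a direct target of NF-kB, had 13.0, 13.3 and 14.4 FPKM (fragments per kilobase of gene length, scaled to library size) in NC replicates 1 to 3 and 75.3, 118 and 112 FPKM in TNF-α replicates 1 to 3. Its log2 fold change was 2.79 (adjusted p 0.00415), and that of the chemokine gene CXCL8 was 4.12 (adjusted p 0.000996). Of 13 NF-kB response genes 12 were higher at an adjusted p under 0.05, against 0.717% of all 12136 genes tested. NFKBIA lost its call without any one NC library (adjusted p 0.0556 to 0.0615), where 4 of the 13 genes passed, and 8 passed without TNF-α replicate 2 and 5 without replicate 3.

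The cell type of the line was compared with markers. Of 8 astrocyte markers 4 (VIM, GJA1, GFAP and SLC1A3) passed the filter on low values, and AQP4 was at 0 in all 6 libraries. Of 12 neuron markers MAP2 and NEFL passed, whereas RBFOX3, STMN2, ELAVL3, ELAVL4 and DCX had FPKM of 0.0697 or less in every library. The summed FPKM of the neuron list, mostly NEFL, was 96.0 to 103 in the NC group and 55.5 to 69.0 in the TNF-α group, and that of the astrocyte list, mostly VIM, was 378 to 414 and 483 to 1006. In the oligodendrocyte lineage list, which went from 3.16 to 3.38 in the NC group to 0.476 to 1.31 in the TNF-α group, 1 of 8 genes (PDGFRA) passed, and OLIG1 and MOG were at 0. None of 6 microglia and leukocyte markers passed (summed FPKM at most 0.387), and PTPRC was at 0. In limma, GFAP and PDGFRA were called lower, with log2 fold changes of -1.54 (adjusted p 0.0210) and -1.28 (adjusted p 0.0350), and no other marker passed. The part of these markers in the results below was not tested.

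Most of the 74 genes were barely transcribed in U251 cells. A filter of at least 1 FPKM in 3 or more libraries was passed by 10 genes, which also had at least 1 FPKM in every library. These were GRIK2, GABRA3, GABBR1, NLGN1, NLGN2, SYT1, SYT11, DLG1, DLG3 and DLG4. A further 20 had at least 10 reads in at least 3 libraries. Of the other 44, 32 had between 1 and 52 reads in all 6 libraries together and never exceeded 0.0903 FPKM, and 12 had 0 reads in every library. Among these 12 were GABRA5, GABRA6, GABRB2, GABRR3, GRIK3, GRM6, SYT6, SYT9, SYT10 and SYT13. A count of 0 allows up to 3 reads, which for these genes corresponds to 0.00362 to 0.0331 FPKM depending on the gene and the library. This limit covers counting error only and takes reads as independent. Mates of a pair appear to be counted separately, so the true limit is higher.

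The 10 expressed genes were compared between the groups with limma on log2(FPKM + 1), with p-values adjusted over all 12136 genes tested. None of the 10 passed an adjusted p under 0.05, a threshold that 1.01% of all genes passed. At an unadjusted p under 0.05 there were 3 (NLGN2, GRIK2 and NLGN1), against 24.2% of all genes. The fitted change was below 0 for 9 of the 10, all but DLG4, against 47.0% of all genes. In NLGN2, DLG3 and GRIK2 every TNF-α library lay below every NC library, a pattern seen in this direction in 15.3% of all genes. The median log2 fold change of the 10 was -0.34, and that of all genes was 0.04. All 10 have more than 4 kb of exonic length. Among tested genes of at least 4 kb, 60.1% were below 0 and the median was -0.15. Among those of at least 8 kb the values were 76.1% and -0.36.

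**Figure D1:**
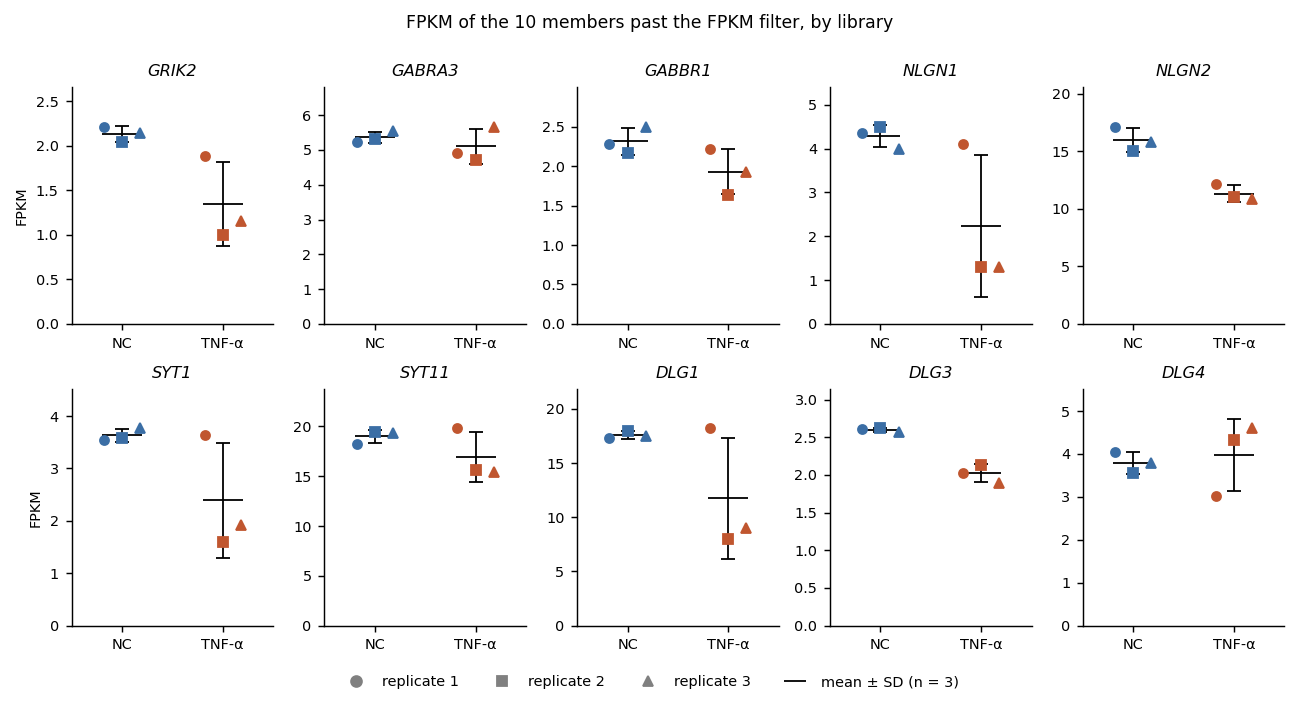
Deposited FPKM (vertical axes, linear from 0) of the 10 members past the FPKM filter in the NC and TNF-α groups. Each symbol is 1 library, with bars for the mean ± SD of 3. In NLGN2, DLG3 and GRIK2 the groups do not overlap, while in DLG1, NLGN1 and SYT1 TNF-α replicate 1 lies with the NC libraries and replicates 2 and 3 lie far below them.

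Among the ionotropic glutamate receptors, the kainate receptor subunit GRIK2 (ENSG00000164418, chromosome 6, 101181257 to 102070083, GRCh38) was the one clearly expressed gene. GRIK2 had 2.21, 2.04 and 2.14 FPKM in NC cells and 1.88, 1.00 and 1.15 FPKM after TNF-α, or 2.13 ± 0.0866 against 1.35 ± 0.472 (SD, n = 3 per group). All 3 treated libraries were lower, replicate 1 by the least. The log2 fold change was -0.44 (SE 0.17, adjusted p 0.195). GRIK4, a subunit that forms kainate channels only with a partner such as GRIK2, had 118, 130 and 150 reads in NC cells and 74, 63 and 67 after TNF-α. Its treated libraries were close to each other, and replicate 1 was not an exception. The mean FPKM of GRIK4 went from 0.528 ± 0.0934 to 0.332 ± 0.0313. GRIK1 had 5 to 13 reads per library with overlapping groups, GRIK5 had 1 to 11, and GRIK3 had none.

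AMPA and NMDA receptor subunits were near the lower limit of the libraries. GRIA1 to GRIA4 summed to 0.104 to 0.166 FPKM in NC cells and to 0.121, 0.0476 and 0.0387 in TNF-α replicates 1 to 3. GRIA2, whose edited transcript makes AMPA channels impermeable to calcium, had 16, 14 and 8 reads against 14, 0 and 2. The 7 NMDA receptor genes summed to 0.328 to 0.475 FPKM in NC cells and to 0.266, 0.169 and 0.165 after TNF-α. GRIN1, the subunit that every NMDA receptor needs, had 6, 2 and 6 reads in NC cells and 0, 0 and 2 after TNF-α, too few for a difference to be detectable at this depth. GRIN2B, which encodes a glutamate-binding subunit, had 30, 18 and 27 reads against 10, 8 and 4, so its groups did not overlap, at a level of 0.0239 FPKM on average in NC cells. The groups of GRIN2C, GRIN2D and GRIN3B overlapped or touched. The delta receptor gene GRID1 had 2 reads in all libraries together.

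Metabotropic glutamate receptors were at a similar level. The 8 genes of this family summed to 0.0727 to 0.233 FPKM in NC cells and to 0.151, 0.0604 and 0.0771 after TNF-α. GRM7, a presynaptic inhibitory receptor in neurons, had 10, 8 and 21 reads against 13, 8 and 6. The groups of GRM7 overlapped.

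Of the 15 GABA-A subunit genes of the set, GABRA3 (ENSG00000011677, chromosome X, 152166234 to 152451358), which encodes the α3 subunit, made up 80.6% to 93.0% of the summed FPKM in each library. GABRA3 had 5.23, 5.32 and 5.54 FPKM in NC cells and 4.92, 4.71 and 5.67 after TNF-α (5.36 ± 0.160 against 5.10 ± 0.503). The groups overlapped, with TNF-α replicate 3 above every NC library. The log2 fold change was -0.06, with a 95% confidence interval from -0.35 to 0.23. A β subunit, which GABA-A channels need beside α, was found as GABRB1 with 52, 26 and 35 reads in NC cells and 25, 6 and 10 after TNF-α, or 0.353 ± 0.103 against 0.151 ± 0.0887 FPKM. The libraries of GABRB1 did not overlap, by a margin of 1 read. GABRR2, a ρ subunit of the kind found in retina, had 51, 45 and 36 reads against 35, 16 and 10, with replicate 1 again only 1 read below the lowest NC library. GABRA2 had 55, 58 and 46 reads against 69, 7 and 23, with replicate 1 highest of all.

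The GABA-A genes GABRE (ε) and GABRQ (θ), which the rule did not take, lie beside GABRA3 on chromosome X, at 151953124 to 151974680 and 152638183 to 152657534. They were chosen after their values were seen. GABRE had 7.49, 7.78 and 7.34 FPKM in NC cells and 4.38, 3.29 and 3.24 after TNF-α, a log2 fold change of -0.89 (SE 0.14, adjusted p 0.0537). GABRQ had 2.42, 2.35 and 2.61 FPKM against 1.33, 0.650 and 0.727, a log2 fold change of -0.88 (SE 0.17, adjusted p 0.0935). In both genes all 3 treated libraries were far below the NC libraries, although neither passed the threshold. The ratio of GABRE to GABRA3 was 1.33 to 1.46 in NC cells and 0.890, 0.698 and 0.572 after TNF-α. That of GABRQ to GABRA3 was 0.441 to 0.471 and 0.271, 0.138 and 0.128. GABRE and GABRQ (9.61 and 6.17 kb of exonic length) are longer than GABRA3 (4.19 kb), and long genes held fewer reads in replicates 2 and 3. Both ratios were also lower in replicate 1 than in any NC library. The part of gene length in these ratios was not tested.

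**Figure D2:**
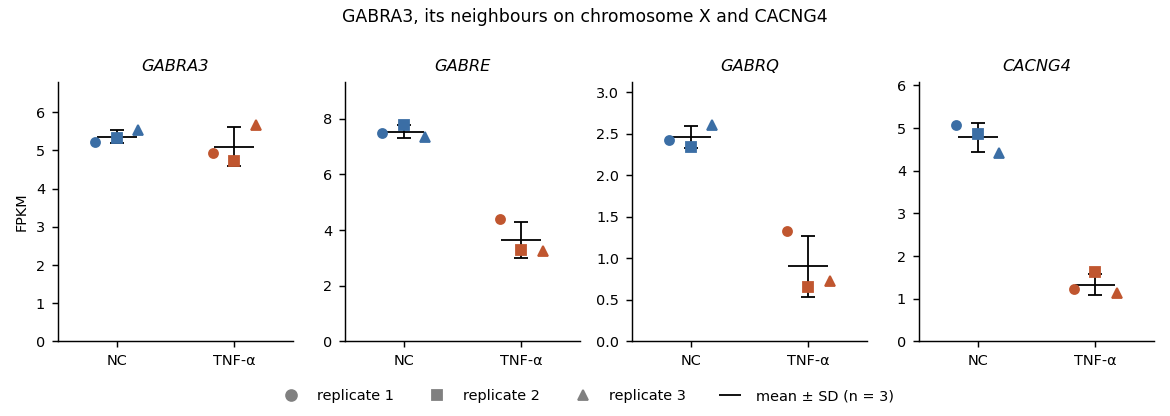
Deposited FPKM (linear axes from 0) of GABRA3, of GABRE and GABRQ beside it on chromosome X, and of the AMPA receptor auxiliary subunit gene CACNG4. Each symbol is 1 library, with bars for the mean ± SD of 3. GABRA3 overlaps between the groups, whereas all TNF-α libraries of the other genes lie below all NC libraries.

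The subunits of the GABA-B receptor differed in level. GABBR1 (ENSG00000204681, chromosome 6, 29555629 to 29633976) had 2.28, 2.16 and 2.50 FPKM in NC cells and 2.21, 1.64 and 1.93 after TNF-α (2.31 ± 0.171 against 1.93 ± 0.286). This gave a log2 fold change of -0.18 (SE 0.13, adjusted p 0.298), and the groups overlapped. Exons of UBD, on the same strand as GABBR1, and of OR2I1P, on the other strand, cover 8.52% of its exonic length. The use of strand in counting was not stated. The share of its reads that comes from those exons was not measured and need not equal their share of the length. GABBR2 (ENSG00000136928, chromosome 9, 98288082 to 98709197) had 13, 30 and 34 reads in NC cells and 2, 3 and 0 after TNF-α. These are 77 reads against 5, or 0.721 against 0.0480 per 1000000 reads. The 0 of TNF-α replicate 3 allows up to 0.0162 FPKM if reads are independent, and more if mates were counted separately. TNF-α replicate 1 was as low as the other treated libraries. GABBR2 entered the test through its NC libraries alone, so that a difference was built into its selection. Its adjusted p in the test of the reads described below was 0.167.

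Of the neuroligins, NLGN1 and NLGN2 were expressed. NLGN2 (ENSG00000169992, chromosome 17, 7404874 to 7419860), which is known from inhibitory synapses, had 17.1, 15.1 and 15.9 FPKM in NC cells and 12.2, 11 and 10.8 after TNF-α (16.0 ± 1.04 against 11.3 ± 0.732). The 3 treated libraries were close together and all below the NC libraries. The log2 fold change was -0.46 (SE 0.12, 95% confidence interval -0.76 to -0.16), with an unadjusted p of 0.00875 and an adjusted p of 0.184, so it did not pass the threshold. It was -0.37 with TNF-α replicate 1 alone (adjusted p 0.0773), where the lone library is assumed to vary like the NC libraries. Without that replicate it was -0.51 (adjusted p 0.000503), in a fit that 79.4% of all genes passed. NLGN1 (ENSG00000169760, chromosome 3, 173396284 to 174286644), known from excitatory synapses, had 4.36, 4.5 and 4.0 FPKM against 4.11, 1.3 and 1.3. Here replicate 1 lay among the NC libraries. The log2 fold change of NLGN1 was -0.82 (SE 0.33, adjusted p 0.195). The ratio of NLGN1 to NLGN2 was 0.252 to 0.299 in NC cells, then 0.337, 0.118 and 0.119 after TNF-α. NLGN1 has 10.1 kb of exonic length and NLGN2 5.55 kb, and long genes held fewer reads in TNF-α replicates 2 and 3. With a length correction alone NLGN1 still fell more than NLGN2 (-0.53 against -0.45). With a length and GC correction NLGN1 fell less than NLGN2 (-0.37 against -0.75). NLGN3 had 1 to 11 reads per library. Of their partners, NRXN3 had 157, 180 and 144 reads in NC cells and 137, 52 and 39 after TNF-α, while NRXN2 had 4 reads in all.

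The sequence before the start of transcription was read for NLGN2 and GABBR2, 2 of the 11 members whose treated libraries all lay below the NC libraries, chosen after their values were seen, for the one expressed member with a match to the NF-kB consensus (DLG4), and for NFKBIA as a gene with a known NF-kB element. Each is the 250 bases upstream of the RefSeq start on GRCh38.p14, 5′ to 3′ on the strand of the gene. Capitals mark NF-kB consensus matches in DLG4 and NFKBIA and the GC box GGGCGG, on either strand, in GABBR2. NLGN2 holds neither motif, and its RefSeq start lies 2971 bases inside the gene as the deposited table bounds it. The windows are chr17:7407595-7407844 (plus strand) for NLGN2, chr9:98708936-98709185 (minus strand) for GABBR2, chr17:7220051-7220300 (minus strand) for DLG4 and chr14:35404750-35404999 (minus strand) for NFKBIA.
NLGN2: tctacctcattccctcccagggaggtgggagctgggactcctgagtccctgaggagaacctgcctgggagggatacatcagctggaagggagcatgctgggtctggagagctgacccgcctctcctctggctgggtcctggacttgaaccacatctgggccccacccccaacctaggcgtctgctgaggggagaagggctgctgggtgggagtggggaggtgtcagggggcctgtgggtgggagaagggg
GABBR2: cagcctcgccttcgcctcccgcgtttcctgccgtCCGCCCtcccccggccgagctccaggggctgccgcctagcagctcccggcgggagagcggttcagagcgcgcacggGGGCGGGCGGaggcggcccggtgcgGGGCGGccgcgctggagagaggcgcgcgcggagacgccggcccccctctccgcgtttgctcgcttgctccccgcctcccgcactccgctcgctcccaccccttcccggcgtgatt
DLG4: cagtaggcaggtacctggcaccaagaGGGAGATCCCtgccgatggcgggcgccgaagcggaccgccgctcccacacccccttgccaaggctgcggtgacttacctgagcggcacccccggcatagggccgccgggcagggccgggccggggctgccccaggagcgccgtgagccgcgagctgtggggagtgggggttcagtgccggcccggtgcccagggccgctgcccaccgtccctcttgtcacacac
NFKBIA: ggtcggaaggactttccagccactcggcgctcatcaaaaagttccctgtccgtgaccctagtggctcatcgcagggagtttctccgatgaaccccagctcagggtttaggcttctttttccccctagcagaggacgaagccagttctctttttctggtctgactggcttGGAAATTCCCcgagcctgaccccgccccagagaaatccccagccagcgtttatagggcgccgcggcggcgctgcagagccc
The NF-kB match of DLG4 starts at position -224 relative to its RefSeq start and that of NFKBIA at -81. NLGN2 holds 2 CpG dinucleotides and GABBR2 holds 38, against a median of 11 in all 35116 windows of this kind. A window was found for 9 of the 10 expressed members, not for GABRA3, and for 15 of the 20 weakly expressed ones. Of these, 1 of 9 and 4 of 15 held the NF-kB consensus, against 9.96% of all windows. The GC box was held by 5 of 9 and 8 of 15, against 42.6% of all windows. The TATA box TATAAA was held by 0 of 9 and 2 of 15 (10.7% of all windows), and the cyclic AMP element TGACGTCA by 1 of 9, GABBR1, and 1 of 15 (1.65%). Some RefSeq starts lie far inside the gene as the deposited table bounds it, so such windows need not precede the start used in these cells. The offset was 5963 bases for GABBR1 and 212451 for GRIK2. It was 37844 for GABRB1 and 15938 for GRIA2, which both held the NF-kB consensus. A match describes letters and not a bound site.

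Synaptotagmins were the largest family, with 17 genes, and its 2 expressed members differed. SYT11 (ENSG00000132718, chromosome 1, 155859509 to 155885199), an atypical member that does not bind calcium, had the highest mean level of all 74 genes. It had 18.2, 19.4 and 19.4 FPKM in NC cells and 19.8, 15.6 and 15.4 after TNF-α, a log2 fold change of -0.16 (SE 0.15, adjusted p 0.391). SYT1 (ENSG00000067715, chromosome 12, 78863993 to 79452008), the calcium sensor of fast transmitter release, had 3.54, 3.59 and 3.76 FPKM against 3.64, 1.60 and 1.93. In both genes TNF-α replicate 1 was within or above the range of the NC libraries. The log2 fold change of SYT1 was -0.50 (SE 0.23, adjusted p 0.195). SYT14 behaved like SYT1, with 248, 242 and 280 reads in NC cells and 253, 58 and 56 after TNF-α. SYT12 did not, with 186, 163 and 195 reads against 55, 114 and 87, so that replicate 1 was the lowest library. SYT16 had 121, 97 and 64 reads against 84, 22 and 10, and SYT8 had 2 to 17 reads per library. Of the synapsins, which coat synaptic vesicles, SYN1 had 24, 28 and 18 reads against 16, 7 and 6, with 8.37% of its exonic length shared with other genes, while SYN2 had 2 to 11 per library and SYN3 had 1 read in all.

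The DLG scaffolds showed 3 different patterns. DLG1 (ENSG00000075711, chromosome 3, 197042560 to 197299300), which encodes SAP97 and is expressed in many tissues, had 17.3, 18.0 and 17.5 FPKM in NC cells and 18.2, 8.03 and 9.0 after TNF-α. TNF-α replicate 1 was thus above every NC library, and the other treated libraries were far below all of them. The log2 fold change was -0.63 (SE 0.29, adjusted p 0.195). DLG3 (ENSG00000082458, chromosome X, 70444861 to 70505490), which encodes SAP102, had 2.61, 2.62 and 2.57 FPKM against 2.03, 2.13 and 1.90 (2.60 ± 0.0258 against 2.02 ± 0.120), with all treated libraries lower by similar amounts. This gave a log2 fold change of -0.25 (SE 0.11, adjusted p 0.195). DLG4 (ENSG00000132535, chromosome 17, 7187169 to 7219841), which encodes the postsynaptic density protein PSD-95, had 4.06, 3.55 and 3.78 FPKM against 3.03, 4.32 and 4.59, with replicate 1 below and replicates 2 and 3 above all NC libraries. Its log2 fold change was 0.04, with a 95% confidence interval from -0.35 to 0.43. The direction of DLG4 reversed under several alternatives, among them leaving out TNF-α replicate 2 (-0.01) or 3 (-0.05). DLG2 had 14, 13 and 23 reads against 17, 8 and 4.

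The differences followed the library as much as the group. The median difference of the 10 expressed members from the NC mean was -0.08 for TNF-α replicate 1 and -0.42 for each of the other treated libraries, on the log2(FPKM + 1) scale. For all genes tested the medians were -0.01, 0.08 and 0.05. The members are long, with a median exonic length of 7.71 kb against 4.64 kb for all genes tested. The median difference of the tested genes of at least 8 kb was 0.00, -0.56 and -0.52, and that of genes under 4 kb was -0.03, 0.57 and 0.48. Gene length thus moved with the difference in replicates 2 and 3 and not in replicate 1.

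**Figure D3:**
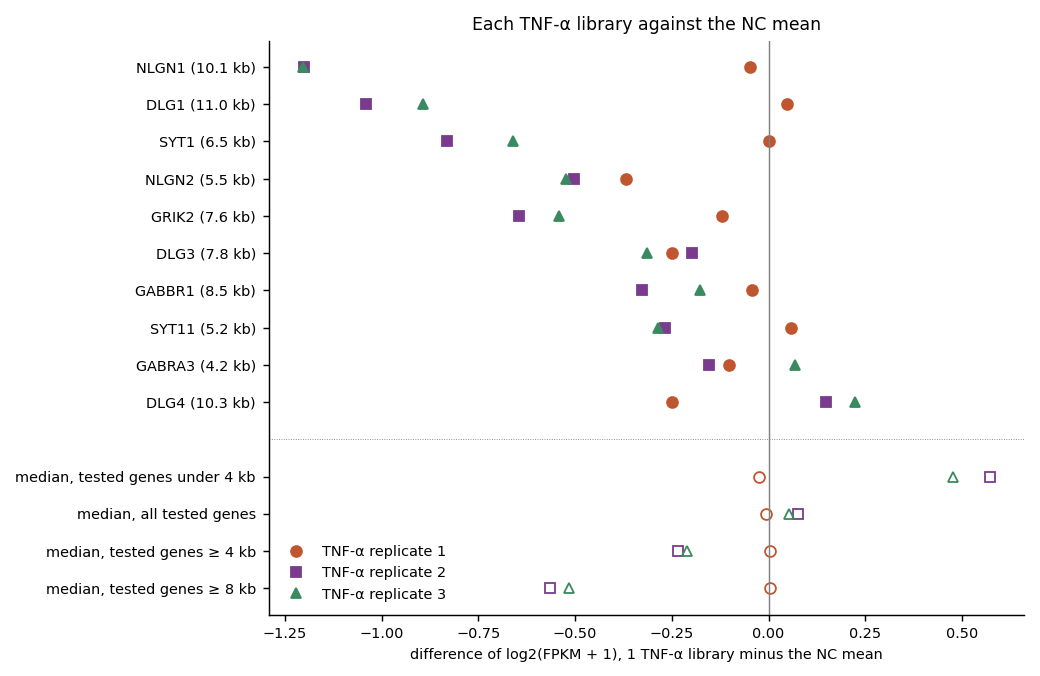
Difference of log2(FPKM + 1) between each TNF-α library and the NC mean (horizontal axis) for the 10 expressed members with their exonic lengths, and below the dotted line the medians of tested genes by length. Replicates 2 and 3 lie left of 0 for 8 members, while replicate 1 lies between -0.37 and 0.06.

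When length and GC content were fitted and subtracted, the median log2 fold change of the 10 members went from -0.34 to -0.13, and none passed the threshold. NLGN2 became -0.75 (SE 0.20, adjusted p 0.126) and NLGN1 -0.37 (SE 0.15, adjusted p 0.175). DLG1 became -0.13 (SE 0.10), DLG3 -0.09 (SE 0.11), SYT1 -0.19 (SE 0.11) and GRIK2 -0.05 (SE 0.11). Without TNF-α replicate 1, 8 of the 10 passed, all but GABRA3 and DLG4, all of them lower, but so did 79.4% of all genes, 36.8% lower. NLGN1 then had -1.20 (adjusted p 1.64e-05) and DLG1 -0.97 (adjusted p 2.18e-05). In this fit the 2 treated libraries were those that stood apart, so the call rests on them.

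**Figure D4:**
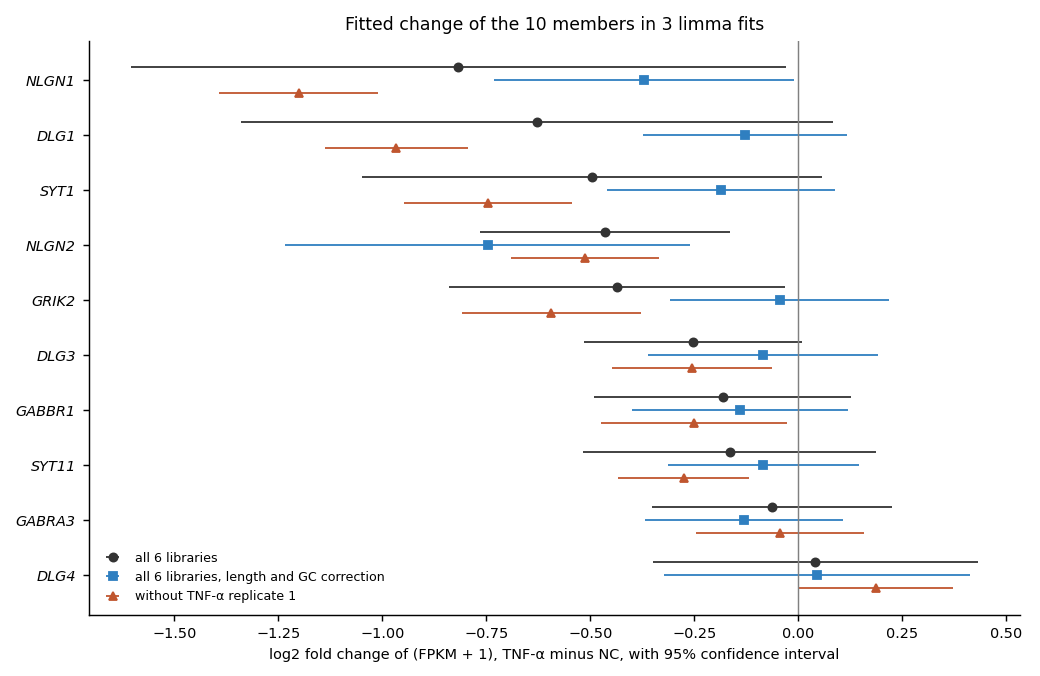
Fitted log2 fold changes of (FPKM + 1), TNF-α minus NC, with 95% confidence intervals, for the 10 expressed members in limma fits of all 6 libraries, of all 6 after a length and GC correction, and of the 5 libraries without TNF-α replicate 1. The whole intervals of NLGN2 and NLGN1 lie left of 0 in each of the 3 fits, whereas GRIK2 and DLG1 move close to 0 after the correction.

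The 30 members with at least 10 reads in at least 3 libraries were also tested as reads with limma-voom. None of the 30 passed an adjusted p under 0.05, which 0.523% of the 16638 genes tested did. An unadjusted p under 0.05 was reached by 16 (28.8% of all genes), and the fitted change was below 0 for 29 (63.6% of all genes), all but GRIK1. In 11 of the 30 every TNF-α library was below every NC library (15.5% of all genes), and 8 of those were among the 20 weakly expressed genes. The median log2 fold change was -1.04 in the 30 members and -0.28 in all genes. GABBR2 passed this filter through its NC libraries alone and had to be lower in the TNF-α group. The filter used the same reads as the test, so these counts describe the members and support no difference. The fitted changes of the 8 weakly expressed genes without overlap were -3.83 (SE 0.94) for GABBR2, -1.71 for GRIN2B, -1.60 for GABRB1, -1.29 for SYN1, -1.24 for NRXN3, -1.22 for GABRR2, -1.10 for SYT12 and -0.92 for GRIK4, with adjusted p-values from 0.167 to 0.172. The length correction on the log2(FPKM + 1) scale turned the sign of GABBR2 (0.027), GRIN2B (0.37), NRXN3 (0.18) and SYT12 (0.054), the length and GC correction that of NRXN3 (0.13) and GRIN2B (0.33), and quantile normalization that of GRIN2B (0.017).

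**Figure D5:**
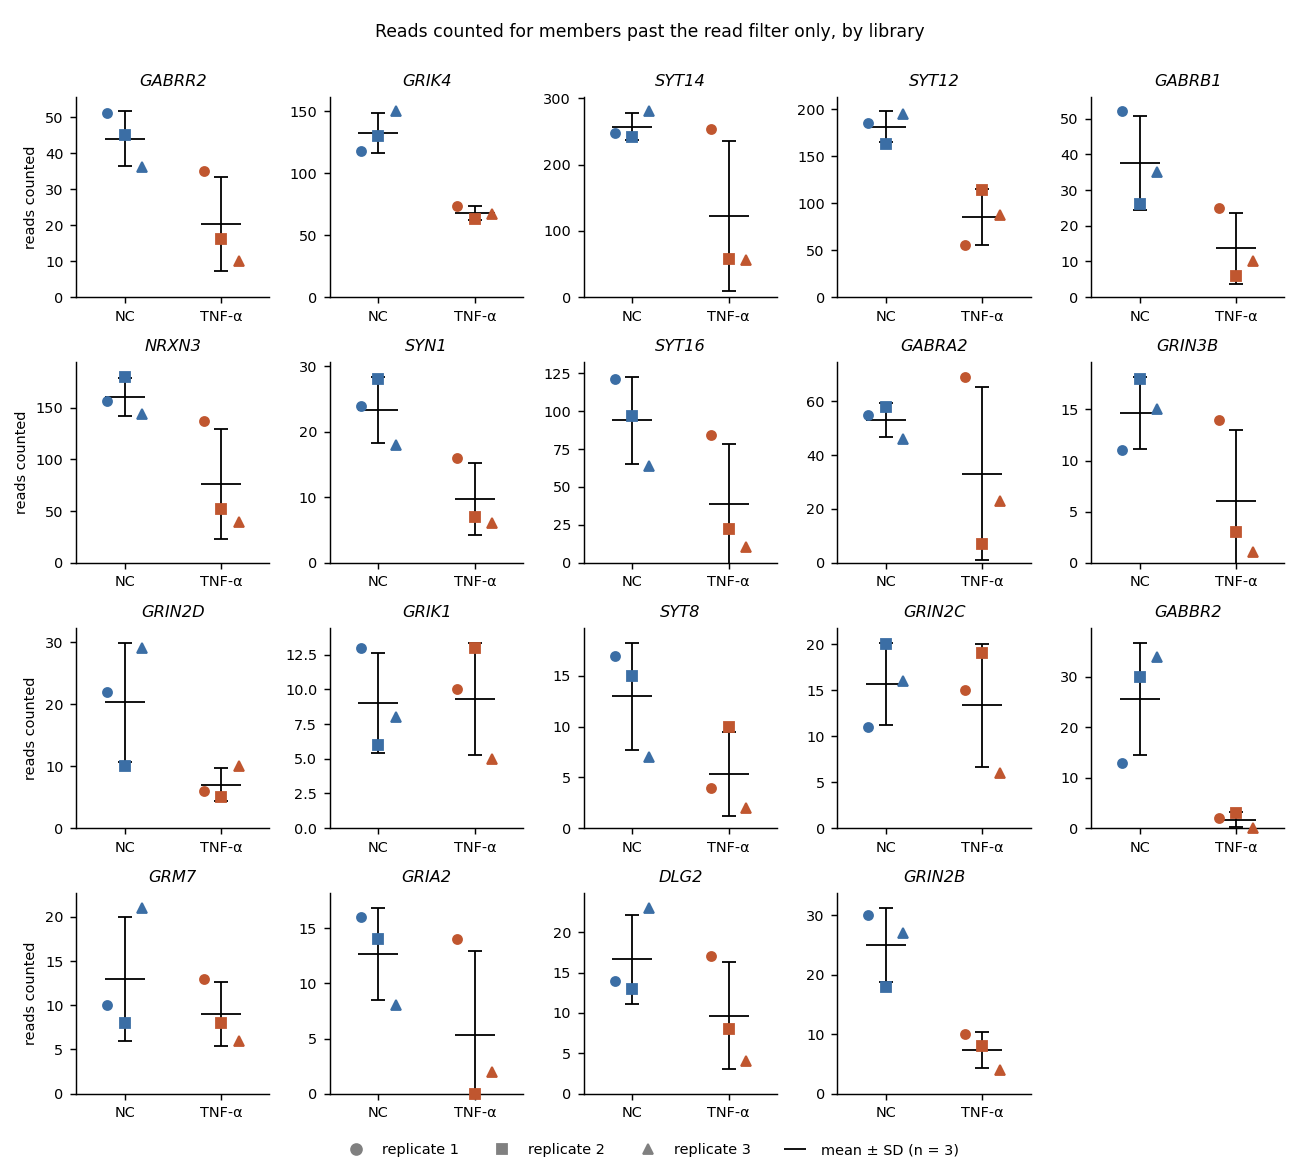
Reads counted in each library (vertical axes, linear from 0) for members that passed only the read filter. Each symbol is 1 library, with bars for the mean ± SD of 3, cut at 0. GABBR2, GRIK4 and SYT12 are low in all 3 TNF-α libraries, while SYT14 and GABRA2 are low in replicates 2 and 3 only.

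Genes that work with these receptors were examined in 6 further lists. Among 15 auxiliary subunits of glutamate receptors, the one gene expressed enough to be tested was CACNG4 (ENSG00000075461, chromosome 17, 66964910 to 67033398), whose product γ-4 guides the traffic and gating of AMPA receptors. CACNG4 had 5.08, 4.85 and 4.41 FPKM in NC cells and 1.23, 1.62 and 1.15 after TNF-α, a fall by 1.31 on the log2 scale (SE 0.13, adjusted p 0.0132). All treated libraries including replicate 1 were low, and 0.297% of all genes were called lower. The call was lost without any one of the NC replicates or TNF-α replicate 3 (adjusted p 0.109 to 0.141). Another gene covers 6.78% of its exonic length. Of 21 tested genes of vesicle fusion and release 1 passed, SYTL5, a synaptotagmin-like protein of vesicle transport. SYTL5 had 6.86, 7.08 and 6.41 FPKM against 2.90, 1.44 and 1.95, with a log2 fold change of -1.36 (SE 0.19, adjusted p 0.0387). That call was lost under 11 of 18 alternatives, among them leaving out any library other than TNF-α replicate 1 (adjusted p 0.1 to 0.276).

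In the other lists no gene passed in limma, and none in limma-voom. They held 7 tested genes of GABA receptor subunits and assembly, 12 postsynaptic scaffold genes, 11 genes of glutamate and GABA transport and metabolism, and 14 trans-synaptic adhesion partners, with 3, 2, 4 and 6 genes at an unadjusted p under 0.05. The vesicle list had 9 such genes of 21, and the share in all genes was 24.2%. The median log2 fold changes of the 4 lists were -0.59, 0.02, -0.22 and -0.21, and that of the vesicle list was -0.23, against 0.04 in all genes. Of the most abundant genes, the GABA-B auxiliary subunit gene KCTD12 had 14.6, 15.0 and 15.1 FPKM against 11.2, 2.76 and 3.64 (log2 fold change -1.42, adjusted p 0.195). The glutamine transporter gene SLC1A5 had 105, 98.6 and 112 FPKM against 111, 237 and 204 (0.73, adjusted p 0.195), with 23.8% of its exonic length shared with other genes. The others were GABARAPL2 (0.54), HOMER3 (0.65), NSF (-0.19), GOT2 (0.35), SYPL1 (0.21), SYNGR2 (1.41), CLSTN1 (-0.11) and PTPRF (-0.65), with adjusted p-values from 0.186 to 0.558. Of these, GABARAPL2, HOMER3, GOT2, SYPL1 and CLSTN1 took the other sign under at least 1 alternative. HOMER3 shares 21.2% of its exonic length with other genes. GABRE and GABRQ passed the threshold under 4 of 18 alternatives each, and KCTD12 and SYNGR2 under 2 each.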

How the data were processed

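RNA of 6 U251 cultures was sequenced, 3 per group, grouped by the sample titles. The authors deposited FPKM per gene, without pooling or log transformation, and a gene length, per the file headers. All 58735 genes matched GENCODE release 29 (GRCh38). The submitters' processing notes name HISAT2 2.0.5, StringTie 1.3.3b, featureCounts 1.5.0 and other tools, without their roles. The use of strand was not given in the sources used here. Values of 6 more samples stood in the table. Their column names match none of the labels, and they were not used here. Some members are counted in the totals but not reported here by name.

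In each library FPKM times gene length came in whole steps (100% of values, within 0.05 of a step), and the number of steps was taken as reads. More genes had 2 reads than 1 in every library (2381 against 1485 in NC replicate 1), so the mates of a pair appear to be counted separately and read numbers overstate independent fragments. The library total inside the FPKM was 92.5% to 95.9% of the reads in genes in NC cells and TNF-α replicate 1 but 69.3% and 75.9% in TNF-α replicates 2 and 3, so that the members' reads per 1000000 reads in genes (561 to 579 in the NC libraries, then 525, 260 and 299) fell further than their summed FPKM (80.8 to 81.7, then 75.5, 53.6 and 55.9).

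Genes with FPKM of at least 1 in at least 3 libraries were tested as log2(FPKM + 1), a scale that understates the change of low genes, with limma 3.58.1 in R 4.3.3 (eBayes with trend, two-sided, Benjamini-Hochberg over all genes tested, threshold 0.05). Weakly expressed members were tested with limma-voom on reads (at least 10 in at least 3 libraries). Both were run on simulated data whose groups varied alike, unlike the TNF-α libraries here, so those runs cannot vouch for the tests on these data. Promoter windows came from RefSeq (GRCh38.p14). Python 3.11.15, pandas 2.3.3 and matplotlib 3.10.9 made the tables and plots. Every expressed member was named, weakly expressed members were given by reads, and of each further list up to 5 genes past the threshold and, where fewer passed, the 2 with the highest mean FPKM. The members, lists and tests were chosen with earlier results of these data known.

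Alternatives were another pseudocount (0.1), TPM, quantile normalization, corrections for length and for length and GC content (natural splines with 5 degrees of freedom), robust eBayes, the replicate number as a block, 3 other filters, voom, leaving out each library, and TNF-α replicate 1 alone. Those for the weakly expressed members were chosen after seeing the data.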

Additional observations from a re-analysis of the deposited data

How the results depend on the processing

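No expressed member passed the threshold in the fit of all 6 libraries, and this held under every alternative run except leaving out TNF-α replicate 1, where 8 passed (0 to 8 when each library was left out). The 8 weakly expressed genes without overlap each passed, with the sign kept, under 1 of their 15 alternatives. Their filter used the same reads as the test, so these calls support no difference. The number of genes past the threshold, 123 in all, was 58 under TPM, 185 under quantile normalization, 264 with the length and GC correction, 24 with the replicate block, 732 with TNF-α replicate 1 alone and 58 without a filter. It ranged from 10 to 9630 when each library was left out. The median of the 10 expressed members (-0.34) was -0.87 under TPM, -0.13 with the length and GC correction, -0.076 with TNF-α replicate 1 alone and -0.70 under voom, and ranged from -0.39 to -0.30 when each library was left out. The median of all genes was -0.42 under TPM and -0.28 under voom, so that relative to all genes the members' medians were -0.45 and -0.42, against -0.39 as reported.

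With TNF-α replicate 1 alone the sign reversed for SYT11 (0.057), DLG1 (0.048), SYT1 (0.0024), DLG4 (-0.25), GABARAPL2 (-0.15), HOMER3 (-0.21), GOT2 (-0.0037) and CLSTN1 (0.036). Under TPM it reversed for DLG4 (-0.42), GOT2 (-0.15) and SYPL1 (-0.29), under quantile normalization for GOT2 (-0.13), SYPL1 (-0.24) and GRIN2B (0.017), and under voom for DLG4 (-0.22) and SYPL1 (-0.051). DLG4 was -0.050 to 0.19 when each library was left out. The length correction reversed GABBR1 (0.039), SYPL1 (-0.14), SYT12 (0.054), NRXN3 (0.18), GABBR2 (0.027) and GRIN2B (0.37), and the length and GC correction NRXN3 (0.13) and GRIN2B (0.33). These corrections shift log2(FPKM + 1) values that lie near 0. NLGN2 stayed below 0 under all 18 alternatives (-0.98 to -0.37), as did NLGN1, GABRA3, DLG3 and GRIK2. These others came close to 0, with highest values of -0.049, -0.0014, -0.064 and -0.045. The cause of these changes was not tested.

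The replicate numbers did not pair the samples. Deviations of same-numbered NC and TNF-α libraries from their group means correlated at r = -0.01, -0.18 and 0.12 across genes, and with the replicate block no member was called and CACNG4 (adjusted p 0.105) and SYTL5 (0.143) lost their calls. For the 44 members under both filters no test is reported.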
